A study of Mus musculus with 6 samples.

Results

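Intermediate filament genes were compared between primary neurospheres grown with norepinephrine and with KCl. The set comprised 8 genes, chosen by symbol: the cytoplasmic filament genes Gfap, Vim, Nes, Des and Synm and the nuclear lamin genes Lmna, Lmnb1 and Lmnb2. Each was read on 1 probe set, out of 21640 probe sets on the array that carried a single gene symbol and 19937 genes in all. The neurospheres, floating colonies formed by neural precursor cells, came from hippocampal tissue of male C57BL/6J mice, which were adults of 8 to 12 weeks, and the medium held EGF and bFGF. Of the 6 samples, 3 received 10 µM norepinephrine and 3 received 15 mM KCl, and the spheres, which the labels call big neurospheres, were collected on day 14. Each sample was hybridised to 1 whole-transcript array. No untreated sample was analysed here, so each value is norepinephrine minus KCl and does not say which treatment moved a gene. The labels call the samples biological replicates without naming the animal or culture of each, so the p-values cover no more than the spread among the samples, which may be technical.

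Intermediate filaments are rope-like polymers built from proteins that share a central coiled rod. In the hippocampus, GFAP marks astrocytes and the radial stem cells of the dentate gyrus. Nestin marks neural precursors, those radial stem cells among them, and vimentin is found in astrocytes and precursors. The 3 proteins can assemble into mixed filaments. Lamins form a meshwork under the inner nuclear membrane. B-type lamins are present in nearly all cells and A-type lamins vary with the tissue, so lamin genes mark neither stem cells nor astroglia. Desmin is the filament of muscle and marks neither.

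The promoter sequences shown are those of Gfap and Vim, the 2 genes of the set whose treatment groups did not overlap. Each covers the 250 bases before the gene's start in the RefSeq annotation of GRCm38.p6, written 5′ to 3′ along the gene. In Gfap (chr11:102897201-102897450, minus strand) the capitals mark a match to the STAT-type letters TTCNNNNGAA. In Vim (chr2:13574061-13574310, plus strand) the capitals mark CCAAT boxes, on either strand, and a TATAAA box.
Gfap: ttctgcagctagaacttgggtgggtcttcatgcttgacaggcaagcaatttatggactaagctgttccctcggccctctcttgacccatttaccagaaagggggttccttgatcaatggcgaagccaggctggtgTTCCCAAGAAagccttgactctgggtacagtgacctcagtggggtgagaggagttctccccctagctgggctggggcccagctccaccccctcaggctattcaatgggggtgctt
Vim: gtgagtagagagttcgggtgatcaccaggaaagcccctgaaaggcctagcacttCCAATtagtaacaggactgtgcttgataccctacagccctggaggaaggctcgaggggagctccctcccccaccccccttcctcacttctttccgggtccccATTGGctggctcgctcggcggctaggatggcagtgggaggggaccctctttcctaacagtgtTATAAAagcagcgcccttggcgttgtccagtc
The TTCNNNNGAA match of Gfap lies 115 to 106 bases before the start, and 5.85% of 32851 mouse promoter windows of this length hold these letters on either strand. CCAAT occurs in 33.8% and TATAAA in 12.4% of the windows. The other STAT-type spacing, TTCNNNGAA (7.02% of windows), and the cAMP response core TGACG (17.8%) were not found in the windows of either gene. The nuclear factor I core TTGGC (41.5% of windows) occurs at 2 places in the Vim window, where 1 of them overlaps a CCAAT box. The Gfap window holds 2 CpG pairs and the Vim window 8, beside a median of 6 over all windows. RefSeq entries were used for 7 of the 8 genes, and the CpG count ran from 1 in a window of Lmna to 23 in Synm. These letter matches describe the sequence and show no binding.

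Gfap, the filament of astrocytes and radial stem cells, had the largest difference in the set. It read 8.11, 8.81 and 8.02 log2 units on the norepinephrine arrays, against 6.97, 6.12 and 6.18 on the KCl arrays. Every norepinephrine array read above every KCl array, and the nearest pair was norepinephrine replicate 3 and KCl replicate 1. The log2 difference was 1.89 ± 0.30 (norepinephrine minus KCl ± moderated SE, n = 3 per group), a 3.71-fold difference with a 95% interval from 2.30 to 5.99. By limma the unadjusted p was 0.000179, rank 5 of the 21640 probe sets, and the p with Benjamini-Hochberg adjustment over all of them was 0.774. On KCl replicates 2 and 3 Gfap read below the array medians of named probe sets, 7.03 and 7.17. Signal over background is unknown, and whether background set these readings, and with them the fold, was not tested. In bulk RNA, fewer cells of a type and less RNA per cell cannot be told apart.

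The array of KCl replicate 1 stood apart, since its named probe sets had an SD of 1.38 log2 units and those of the other 5 arrays SDs of 1.62 to 1.78. It read highest of all 6 arrays in 51.2% of named probe sets and lowest in 25.1%. Among the 8 genes it was highest for Des, Synm, Lmnb1 and Lmnb2 and lowest for Vim and Nes, shares of 50% and 25% that lie near those over all probe sets. Without it the Gfap difference was 2.17 ± 0.24, and Gfap was then 1 of 4 probe sets (0.0185%) to pass over all of them (limma adjusted p = 0.045). The others of these 4 were all probe sets of 1 gene, Hmcn1. With all 6 arrays Gfap did not pass. The Gfap difference was 1.64 without norepinephrine replicate 2, the array with its highest reading, and 1.90 after quantile normalization of the deposited values of all 6.

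**Figure D1:**
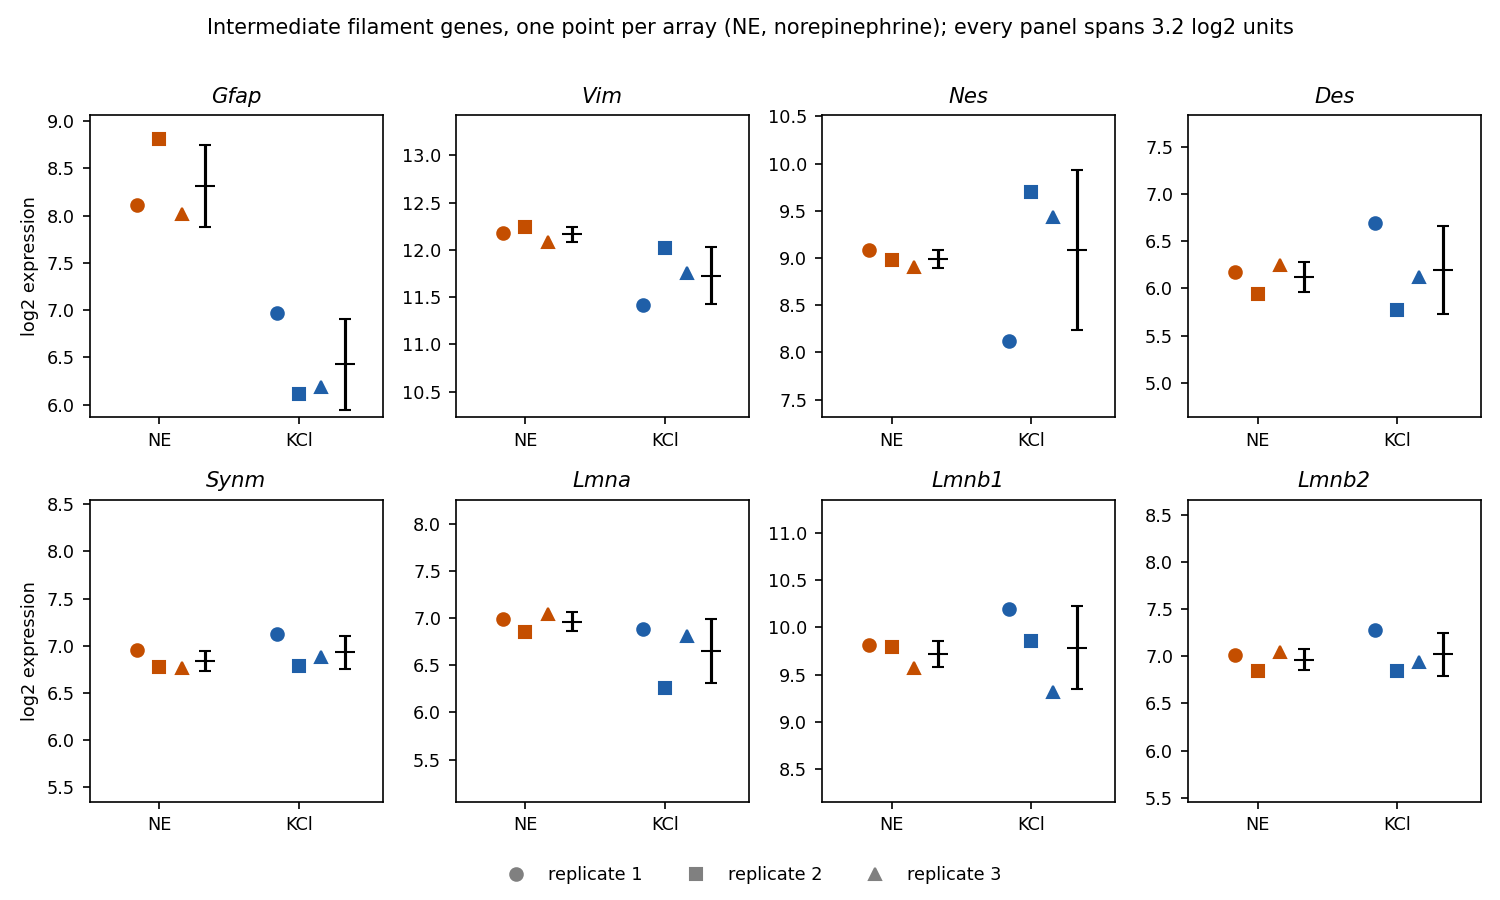
Log2 expression of the 8 genes on each array, with norepinephrine (NE) left and KCl right in each panel, and one symbol per replicate number. Bars show the group mean and SD (n = 3), and all panels span the same number of log2 units, so that the gap of Gfap (8.31 and 6.42) can be set against the others.

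Vimentin, the filament of precursors, radial glia and mesenchymal cells, had the next largest difference. Vim read 12.18, 12.24 and 12.08 with norepinephrine, against 11.41, 12.02 and 11.75 with KCl. The groups did not overlap, but the lowest norepinephrine and the highest KCl reading lay close together. The difference was 0.44 ± 0.21, a 1.36-fold difference (limma adjusted p = 0.939). KCl replicate 1 was the lowest array, and without it the difference was 0.28 ± 0.17, which moves the value by over 1.5 times. It was 0.58 without KCl replicate 2, where Vim had an unadjusted p under 0.05, as did 3532 of all probe sets (16.3%). After quantile normalization it was 0.32 ± 0.14.

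Nestin, a filament of neural precursors, did not separate the treatments on all 6 arrays. Nes read 9.09, 8.98 and 8.90 with norepinephrine, against 8.12, 9.70 and 9.43 with KCl. The norepinephrine arrays lay close together, while KCl arrays lay on both sides of them. The difference was -0.10 ± 0.37, with a 95% interval from -0.94 to 0.75 (limma adjusted p = 0.961). Without KCl replicate 1 both remaining KCl arrays read above all norepinephrine arrays, and the difference was -0.58 ± 0.17 (limma unadjusted p = 0.00802, adjusted p = 0.705). It was 0.21 without KCl replicate 2 and 0.077 without KCl replicate 3, so the sign of the Nes difference depended on which KCl array was left out.

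Desmin and synemin gave small differences. Des read 6.17, 5.94 and 6.25 with norepinephrine, against 6.70, 5.77 and 6.12 with KCl. The groups overlapped, and the KCl arrays held both the highest and the lowest reading. The Des difference was -0.08 ± 0.26, with an interval from -0.66 to 0.51 (limma adjusted p = 0.956). Synemin, a large filament protein that needs vimentin or desmin to polymerise, had readings of 6.96, 6.78 and 6.77 with norepinephrine, against 7.13, 6.78 and 6.88 with KCl. These groups overlapped too. The Synm difference was -0.09 ± 0.19, with an interval from -0.52 to 0.33 (limma adjusted p = 0.941). Without KCl replicate 1 the values of Des and Synm were 0.17 and 0.0053.

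Of the lamins, Lmna, which encodes lamins A and C, had the largest difference. Lmna read 6.99, 6.85 and 7.05 with norepinephrine, against 6.88, 6.26 and 6.81 with KCl. KCl replicate 1 read above norepinephrine replicate 2, so the groups overlapped by 1 pair of arrays, and KCl replicate 2 was the lowest. The difference was 0.31 ± 0.22, with an interval from -0.19 to 0.81 (limma adjusted p = 0.939). It was 0.42 ± 0.20 without KCl replicate 1, 0.11 without KCl replicate 2 and 0.39 ± 0.15 after quantile normalization (limma unadjusted p = 0.0307), where the groups did not overlap.

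The B-type lamins, which stay farnesylated and bound to the membrane, had differences near 0. Lmnb1 read 9.81, 9.79 and 9.56 with norepinephrine, against 10.19, 9.85 and 9.31 with KCl. The KCl arrays lay on both sides of the norepinephrine arrays. The Lmnb1 difference was -0.07 ± 0.25, with an interval from -0.63 to 0.50 (limma adjusted p = 0.960). Lmnb2 read 7.01, 6.84 and 7.04 with norepinephrine, against 7.28, 6.84 and 6.94 with KCl. Its groups overlapped, and the difference was -0.05 ± 0.20, with an interval from -0.50 to 0.39 (limma adjusted p = 0.958). Without KCl replicate 1 the differences of Lmnb1 and Lmnb2 were 0.14 and 0.075. For Vim, Nes, Des, Synm and the 3 lamins the unadjusted limma p-values on 6 arrays were above 0.05, and Gfap missed the adjusted threshold. A missed threshold does not show equal levels, and the intervals bound the differences these arrays allow.

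**Figure D2:**
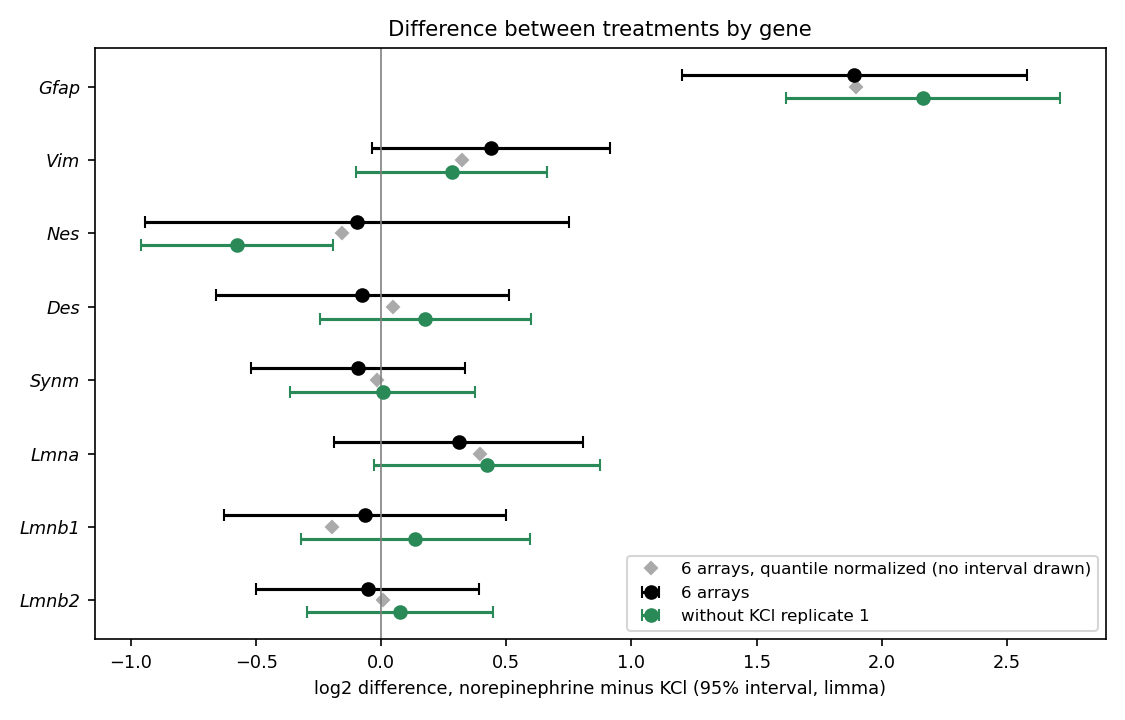
Log2 difference, norepinephrine minus KCl, of each gene with its 95% interval from limma, over 6 arrays (black) and without KCl replicate 1 (green), and the value after quantile normalization (grey). The Gfap interval over 6 arrays, from 1.20 to 2.58, lies above 0, and that of Nes lies below 0 when KCl replicate 1 is left out.

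Counted over the set, 0 of 8 genes passed the adjusted threshold of 0.05, as did 0 of all probe sets (0%, limma), and 743 probe sets had an unadjusted p under 0.05. At that unadjusted threshold there was 1 gene of the 8, Gfap, beside 3.43% of all probe sets. The groups did not overlap for 2 of the 8, Gfap and Vim, both higher with norepinephrine, beside 9.13% of all probe sets in either direction and 4.36% in that direction. Without KCl replicate 1 an unadjusted p under 0.05 was found for Gfap and Nes, 2 of the 8, beside 4.63% of all probe sets. The groups then did not overlap for 4 of the 8, Gfap, Vim, Nes and Lmna, beside 16.2% of all probe sets. Of these, Nes read higher with KCl. After quantile normalization the unadjusted count was 2, Gfap and Lmna, beside 4.36%, and the groups did not overlap for 3 of the 8, beside 10.4%. The median difference over all named probe sets was -0.07, or 0.0083 without KCl replicate 1. On 6 arrays 53.6% of them lay at or below the Lmnb2 difference of -0.05, so most read higher with KCl. The KCl arrays spread more widely than the norepinephrine arrays for all 8 genes, as they did for 83.8% of named probe sets, and without KCl replicate 1 this held for 5 of the 8 and for 62.2% of all.

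**Figure D3:**
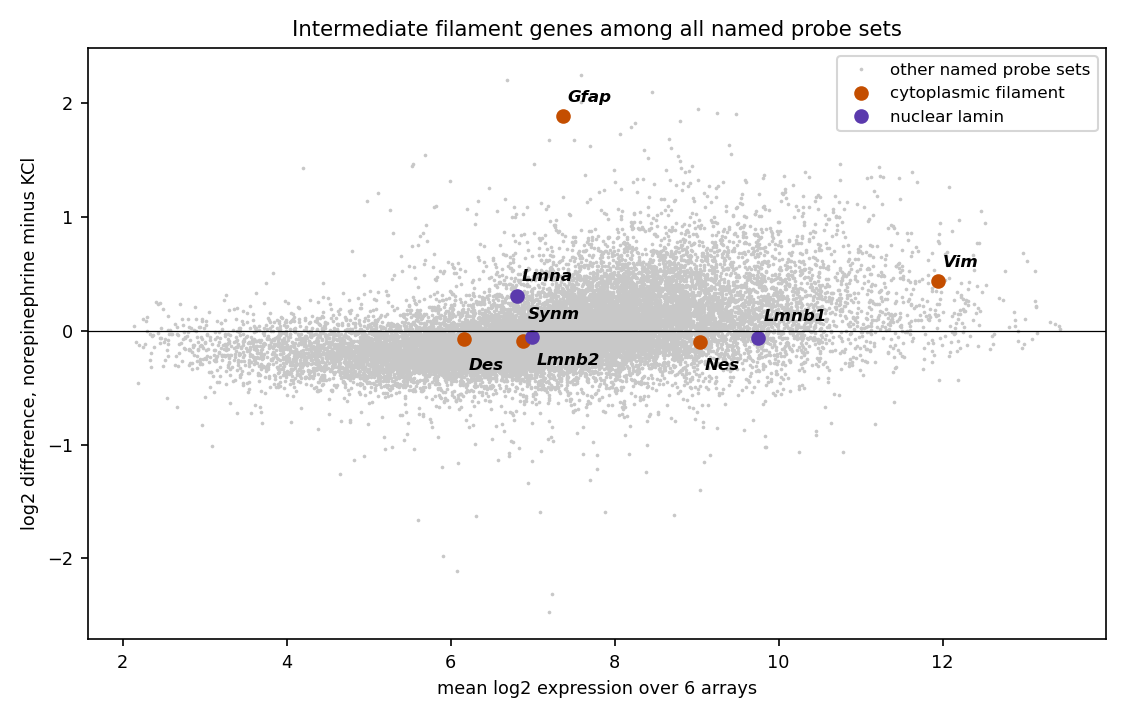
Log2 difference, norepinephrine minus KCl, against the mean log2 expression over 6 arrays, for all named probe sets (grey), the cytoplasmic filament genes (orange) and the lamins (purple). Gfap, at 1.89, lies at the upper edge of the cloud, and Vim, at 0.44, among other bright probe sets.

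Whether Gfap differed between treatments by another amount than the other 7 genes was tested within arrays. The log2 reading of each gene was subtracted from that of Gfap on the same array, so that a shift common to both cancels. The Gfap difference exceeded that of Vim by 1.45, that of Lmna by 1.58 and that of Lmnb2 by 1.94. It exceeded those of Lmnb1, Des, Synm and Nes by 1.96, 1.97, 1.98 and 1.99. In all 7 pairs every norepinephrine array lay above every KCl array. Gfap had the largest difference of the set and did not overlap between groups by itself, so this separation in part restates its own gap. The two-sided exact permutation test gave p = 0.1 for each pair, also after adjustment over the 7, which is the smallest that 3 against 3 arrays can give, so the design cannot reach 0.05. The 7 pairs share the Gfap readings and are not independent. The gap was narrowest for Nes, where norepinephrine replicate 1 stood at -0.97 and KCl replicate 1 at -1.15, and the other 2 KCl arrays at -3.58 and -3.25.

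**Figure D4:**
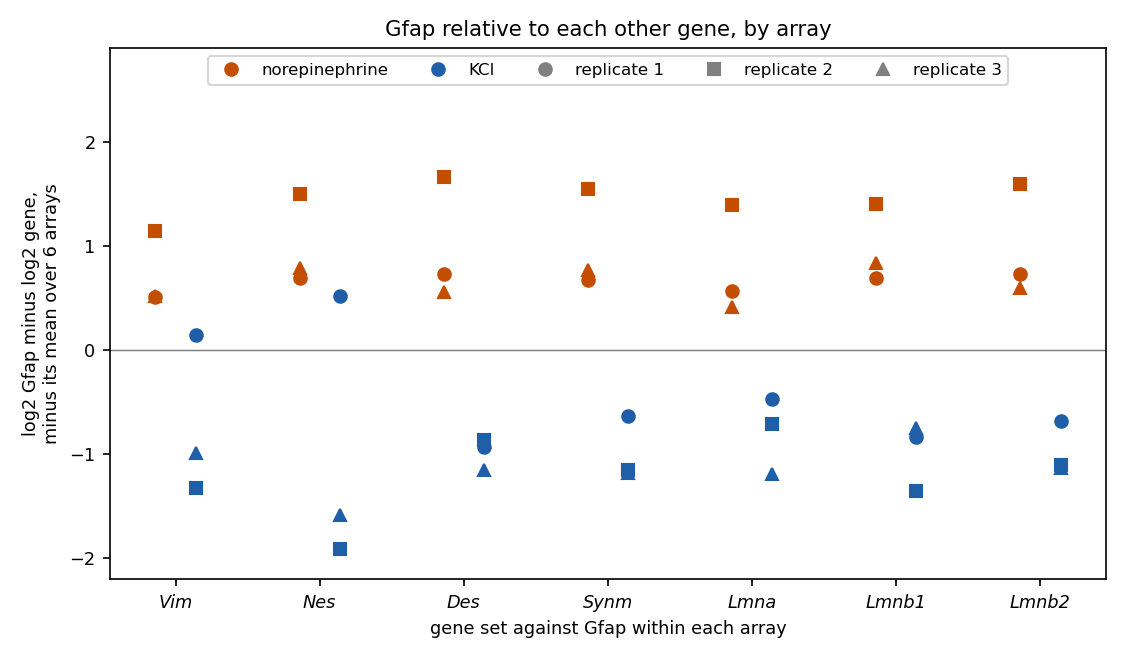
Log2 Gfap minus the log2 reading of each other gene on the same array, less its mean over the 6 arrays, with norepinephrine (orange) left of KCl (blue). The norepinephrine arrays lie above the KCl arrays in each of the 7 pairs, and KCl replicate 1 lies nearest to them for Vim, Nes, Synm, Lmna and Lmnb2.

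Genes with readings most like those of Gfap were sought over the 6 arrays by Pearson correlation, as a description, among 13059 candidate genes. The highest was Atp10a, a phospholipid-transporting ATPase, at r = 0.993, followed by the sterol-binding Osbpl3 at 0.967, the thioredoxin inhibitor Txnip at 0.964 and the myosin regulator Limch1 at 0.964. Their differences were smaller than that of Gfap, at 0.22 for Atp10a, 0.33 for Osbpl3, 0.88 for Txnip and 0.30 for Limch1. A correlation over 0.9 with Gfap was found for 51 genes. For Des there were 2067 such genes, for Lmnb2 1575, for Synm 889, for Vim 803 and for Nes 408, while Lmna had 101 and Lmnb1 52. The most alike gene was Dtd1 for Vim (0.996), Zbtb37 for Nes (0.998), Notch4 for Des (0.998), Zfp706 for Synm (0.995), Slc4a8 for Lmna (0.997), Yipf4 for Lmnb1 (0.993) and Muc4 for Lmnb2 (0.997). All points share the same 6 arrays, on which KCl replicate 1 stood apart.

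The array also held other cytoplasmic intermediate filament genes, among them neurofilaments of neurons, keratins of epithelia and the filaments of the eye lens. Of 19 measured genes, 0 had an unadjusted p under 0.05 in limma, 15 read higher with KCl, and the median was -0.13. Most of all named probe sets also read higher with KCl, with a median of -0.07. Means over the list ran between 6.74 and 6.90 with norepinephrine and between 6.67 and 7.24 with KCl, with the top value on KCl replicate 1. Without that array 14 of the 19 read higher with norepinephrine and the median was 0.052, so the balance of this list followed 1 array.

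Among 19 measured linkers and partners of cytoplasmic filaments, 3 had an unadjusted p under 0.05, all higher with norepinephrine, beside 2.2% of all probe sets in that direction. These were S100a1, a calcium-binding protein, at 0.98 ± 0.21, and the small heat shock proteins Hspb6, at 0.99 ± 0.23, and Cryab, at 0.42 ± 0.18. Cryab, which encodes αB-crystallin, a chaperone that binds GFAP and vimentin filaments, read 9.91, 9.74 and 10.07 with norepinephrine, against 9.43, 9.52 and 9.50 with KCl, and its groups did not overlap. None of the 3 passed over all probe sets (limma adjusted p = 0.856 for S100a1 and 0.939 for both others). The list median was -0.06. Of 19 measured kinases, proteases and deiminases that act on filaments, 0 had an unadjusted p under 0.05, and the median was 0.041.

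Of 21 measured partners of the lamina and the nuclear envelope, 2 had an unadjusted p under 0.05 and were higher with norepinephrine and 1 was higher with KCl, beside 2.2% and 1.24% of all probe sets. Emd, which encodes the lamin-binding protein emerin, read 9.61, 9.29 and 9.30 with norepinephrine, against 8.21, 8.96 and 9.03 with KCl. Its groups did not overlap, and the difference was 0.67 ± 0.26, or 0.41 without KCl replicate 1. Syne1, a nesprin that links the nucleus to the cytoskeleton, stood at 0.46 ± 0.19, but its other probe set stood at -0.16 ± 0.18. Syne2, the other large nesprin, stood at -1.40 ± 0.57, with 11.19 on KCl replicate 1 against 7.89 to 9.29 elsewhere, and at -0.67 without that array. Its 3 other probe sets stood at -0.40, -0.22 and -0.62. None passed over all probe sets (limma adjusted p = 0.939 for each), and the list median was 0.0064. Of 9 measured enzymes that prenylate or process lamins, 0 had an unadjusted p under 0.05 and the median was 0.022.

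Among 29 measured regulators of Gfap transcription, the JAK-STAT, BMP, Notch and nuclear factor I genes among them, 0 had an unadjusted p under 0.05. The median was 0.018, with 18 genes higher with norepinephrine and 11 higher with KCl. Without KCl replicate 1 there were 2 below that threshold, both higher with KCl, beside 2.25% of all probe sets in that direction. These were the cytokine receptor Lifr (-0.62) and the BMP effector Smad5 (-0.45), named after their values were seen, and on 6 arrays they stood at -0.31 and -0.22. Of 23 measured regulators of Nes and Vim transcription, 0 had an unadjusted p under 0.05, and the median was -0.10, or 0.058 without KCl replicate 1. These arrays measure the RNA of such factors and not their activity.

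Marker lists of the cell types that a neurosphere can hold were read beside the filaments. Of 24 measured astrocyte markers, 10 had an unadjusted p under 0.05, all higher with norepinephrine, beside 2.2% of all probe sets in that direction, and 0 passed the adjusted threshold. Means over this list ran between 9.36 and 9.41 with norepinephrine and between 8.36 and 9.03 with KCl, lowest on KCl replicate 1. The list median was 0.56, and without that array it was 0.27, with 10 genes under the unadjusted threshold, beside 2.38% of all probe sets. The astrocyte gene Ndrg2 stood at 1.40 ± 0.22, the lipid carrier Apoe at 1.20 ± 0.21 and the chaperone Clu at 1.04 ± 0.18. Of the 24, 22 were higher with norepinephrine and 2 with KCl, and without KCl replicate 1 there were 20 higher with norepinephrine. The 2 higher with KCl on 6 arrays were S100b at -0.29 and Gjb6 at -0.08, named after their values were seen. On balance the astrocyte list read higher with norepinephrine, as did Gfap, and its part in the Gfap difference was not tested.

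Neural precursor markers had list means of 8.92 to 9.00 with norepinephrine and 8.78 to 8.88 with KCl. Of 19 measured genes, 11 were higher with norepinephrine and 8 with KCl, and 2 had an unadjusted p under 0.05, both higher with norepinephrine, beside 2.2% of all probe sets in that direction: the quiescent stem cell marker Hopx at 0.87 ± 0.26 and the surface glycoprotein Prom1 at 0.60 ± 0.21. Of the same list 2 bright genes were also read, named after their values were seen, so they do not test which cells were present. The dimmest gene of the list, Fut4, had a mean of 5.77 and was the 1 below the 30th percentile of mean. Sox2, a transcription factor of neural stem cells, read 10.36 ± 0.15 with norepinephrine and 10.00 ± 0.50 with KCl, and the radial glial lipid-binding Fabp7 12.89 ± 0.13 and 13.05 ± 0.09 (SD, n = 3). The median of the list was 0.018, while Gfap stood at 1.89 and Nes at -0.10.

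Of 18 measured markers of pericytes, smooth muscle and fibroblasts, which can carry Des and Vim, 6 were higher with norepinephrine and 12 with KCl. Without KCl replicate 1, 14 of the 18 were higher with norepinephrine and the list median was 0.11, so this balance followed 1 array. An unadjusted p under 0.05 was found for 3, all higher with norepinephrine, beside 2.2% of all probe sets in that direction: Thy1 at 1.47 ± 0.35, Pdgfra at 0.66 ± 0.24 and Fn1, encoding fibronectin, at 0.77 ± 0.31. Thy1 is also found on neurons and Pdgfra on oligodendrocyte precursors. The list median was -0.10, and list means were 7.22 to 7.28 with norepinephrine and 6.90 to 7.32 with KCl. Neuron markers had 3 of 16 under the unadjusted threshold, Snap25 at 1.03 ± 0.27, Gap43 at 0.58 ± 0.19 and Tubb3 at 0.47 ± 0.18, with a median of 0.087 and 11 genes higher with norepinephrine and 5 with KCl. Oligodendrocyte lineage markers had 2 of 15, Gpr17 at 0.70 ± 0.25 and Pdgfra, with a median of -0.05 and 7 genes higher with norepinephrine and 8 with KCl. The calls in both lists were all higher with norepinephrine, beside the same 2.2%. Microglia markers had 1 of 15, Ly86 at -0.47 ± 0.20, beside 1.24% of all probe sets that were higher with KCl. Of the 15, 2 were higher with norepinephrine and 13 with KCl, and 9 lay below the 30th percentile of mean. The median of these 15 genes was -0.25, or 0.010 on the 5 arrays other than KCl replicate 1. Endothelial and ependymal markers had 0 of 16 under the unadjusted threshold and a median of -0.18. Of these 16, 2 were higher with norepinephrine and 14 with KCl, and 7 lay below the 30th percentile of mean. Leaving out KCl replicate 1 moved this median to -0.017. Then 8 of the 16 genes had a positive difference, so the lean toward KCl in this list followed 1 array.

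**Figure D5:**
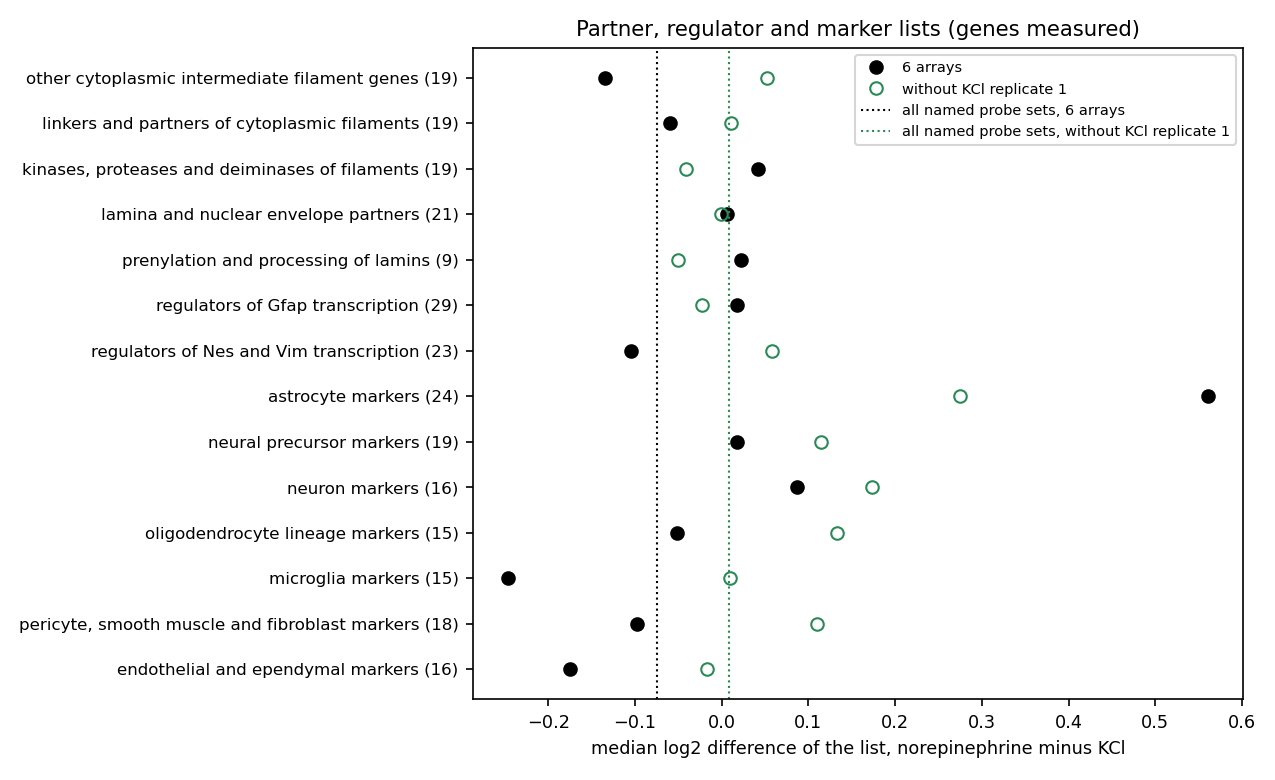
Median log2 difference, norepinephrine minus KCl, of each list, over 6 arrays (filled) and without KCl replicate 1 (open), with dotted lines at the median of all named probe sets (-0.07 and 0.0083). The astrocyte list lies farthest to the right under both, at 0.56 and 0.27, while lists of other filament genes, lamina partners and Gfap regulators lie near the dotted lines.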

How the data were processed

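RNA of 6 mouse neurosphere samples was measured on whole-transcript arrays, after TRIzol extraction and NuGEN Applause WT-Amp ST amplification, per the labels' protocols. The authors deposited 1 log2 value per probe set and array, made with Partek and RMA per the submitters' processing notes. Their versions and settings are not given in the sources used. No scanner files were used and signal over background is unknown, so no probe set was called undetected. The number of arrays limits the precision.

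Of 34760 probe sets, 21640 carried 1 symbol in the platform table, 1321 several and 11799 none. Where a gene had several, the one with the highest mean was used. The 8 symbols matched RefSeq (GRCm38.p6) by Entrez identifier with 0 changes. Limma 3.58.1 in R 4.3.3 (lmFit, eBayes, no covariate) was run on all 21640, two-sided, with Benjamini-Hochberg adjustment. It was tested on simulated data. The 8 genes and the 14 lists (277 entries, 262 measured) were chosen with earlier results of these data known. All 8 genes were named. Each list gave up to 3 genes with the smallest p under 0.05 unadjusted. List genes marked in the text as named after their values were seen lie outside that rule. Likeness gave 4 genes for Gfap and 1 for each other gene, above the 30th percentile of mean and without predicted, receptor and small RNA genes.

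Alternatives were quantile normalization, array centring, a filter on dim probe sets, array weights, a replicate block and leaving out each array. Another set the variance moderation of limma, plain in the main fit, to its trend and robust options.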

Additional observations from a re-analysis of the deposited data

How the results depend on the processing

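Each difference was recomputed under 12 alternatives, with Des left out of the filter at the 30th percentile, where it falls below. Every gene has 1 probe set, so the median over probe sets could not change a value. The default array weights did not converge, and the gene-by-gene weights were chosen after seeing the data. They gave KCl replicate 3 a weight of 6.76 against 0.158 and 0.288 for the other KCl arrays, so this setting compares norepinephrine with nearly 1 KCl array.

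Gfap kept its direction in 12 of 12, from 1.64 to 2.17, with adjusted p from 0.000144 to 1.00, and Vim and Lmna kept theirs. Gfap passed with the weights (1.97, adjusted p = 0.000144) and without KCl replicate 1. Probe sets past the adjusted threshold numbered 1454 with weights and 0 to 4 when 1 array was left out, and genes of the set 1 and 0 to 1. At an unadjusted p under 0.05 there were 4 genes of the set with weights (Gfap, Vim, Nes and Lmnb1), beside 23.9% of all probe sets, 2 after quantile normalization (Gfap and Lmna), beside 4.36%, and 1 to 2 with 1 array left out, beside 1.46% to 16.3%. Groups did not overlap for 2 to 4 genes with 1 array left out, beside 14.3% to 42.2% of all probe sets and 9.13% on 6 arrays. Signs turned for 5 genes. After quantile normalization Des stood at 0.047 and Lmnb2 at 0.0070. With weights Des stood at 0.057, Lmnb1 at 0.33 and Lmnb2 at 0.062. With 1 array left out the ranges were -0.58 to 0.21 for Nes, -0.29 to 0.17 for Des, -0.17 to 0.0053 for Synm, -0.30 to 0.14 for Lmnb1 and -0.14 to 0.075 for Lmnb2. The Des sign also turned without norepinephrine replicate 2 (0.016), that of Lmnb2 likewise (0.0083), and that of Lmnb1 without norepinephrine replicate 3 (0.012). The cause was not tested. Gfap minus each other gene kept its sign under all 7 alternatives run for it, from 1.15 (Vim) to 2.74 (Nes).

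Equal replicate numbers correlated at 0.301, 0.626 and 0.0852 in their deviations from the group means. Norepinephrine replicates 1 and 2 correlated best with the KCl array of the same number, and norepinephrine replicate 3 with KCl replicate 1. The labels name no shared animal or culture, and the samples were not treated as paired. With the replicate number as a block, 0 probe sets passed, the adjusted p of Gfap was 0.316, and 1436 probe sets had an unadjusted p under 0.05 against 743. No call changed.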
